A study of Mus musculus with 4 samples.

Results

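Selectins, integrins and their partners let white blood cells stop on a vessel wall and cross it, and 9 genes of this machinery were followed in the inferior vena cava of mice. They are the selectins Sele and Selp, the selectin ligand Selplg, the endothelial ligands Icam1 and Vcam1, the leukocyte integrin chains Itgam and Itgb2, the hyaluronan receptor Cd44 and the junction molecule Jam2. A gene was taken where the platform annotation gives a probe set exactly 1 gene symbol, and the 9 were among 18820 genes named this way, with 1 probe set each. All 9 also lay above the filter on dim genes, which kept 14115 genes.

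The vein was tied off below the kidneys for 48 h to provoke a stasis thrombus, or was dissected without ligation (sham). The 4 groups were Cd39-null ligated, Cd39-null sham, wild type ligated and wild type sham, and each was 1 array hybridised with RNA pooled from 4 mice aged 8 to 10 weeks. Cd39-null mice lack the enzyme CD39, encoded by Entpd1, which breaks down extracellular ATP and ADP on endothelial cells and leukocytes; the labels name no cell type to which the loss is limited. Both genotypes had been crossed into C57BL/6J for at least 8 generations. The labels do not give the sex of a pool, say whether a ligation was complete or partial, or tell whether the clot went into the RNA. With 1 array per group, a difference between arrays has no replicate check and carries no p-value.

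Entpd1 itself had log2 values of 6.14 on the array labelled Cd39-null, ligated, against 4.16 in Cd39-null, sham, and 6.17 in wild type, ligated, against 7.11 in wild type, sham. The ligated knockout array therefore goes against its genotype label, and every genotype difference in ligated veins, and every knockout ligation difference, rests on that label. Differences in the knockout are given by label throughout. The sources used here do not show whether the probe set covers the deleted sequence. All values are log2 expression from RMA, a method that includes quantile normalisation, but the deposited arrays were not on an identical scale. Their medians ran from 2.97 to 3.04. A further quantile normalisation moved differences of the 9 genes by up to 0.30 log2. As a stand-in for background, the 95th percentile of 1006 olfactory receptor probe sets was taken on each array. It was lower on the ligated arrays (2.68 in Cd39-null and 2.66 in wild type) than on the sham arrays (2.97 and 2.94). All 9 genes were above it on every array. The piece of vein was checked by its markers, and all 12 endothelial markers and 6 of 7 smooth muscle markers were above that level on every array.

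In an inflamed vein, leukocytes are first slowed by selectins, of which E-selectin (Sele) is made by activated endothelium and P-selectin (Selp) is stored in platelet granules and endothelial Weibel-Palade bodies. Their glycoprotein ligand PSGL-1 (Selplg) and CD44 sit on the leukocyte. The integrin Mac-1, made of the Itgam and Itgb2 chains, then binds ICAM-1 and fibrinogen, while VCAM-1 binds integrins with an alpha 4 chain. JAM-B (Jam2) lies at endothelial junctions, where leukocytes cross. The transcription factor NF-kappaB is known to switch on Sele, Icam1 and Vcam1, and PU.1 is known to drive human ITGAM in myeloid cells.

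Promoters are shown for 3 genes, because they stand for the contrast in the values that follow: Sele and Icam1 are endothelial genes whose levels differed little between the arrays, and Itgam had the highest ligation differences of the 9. Each is the 250 bases before a transcription start of the gene in RefSeq's promoter set, with assembly GRCm38.p6, 5′ to 3′ on the strand of the gene, which is the plus strand for all 3. For Icam1 and Itgam this start is the first base of the RefSeq gene, while for Sele it lies inside the RefSeq gene, which begins at 164039614 on chromosome 1. The Sele window is chr1:164047984-164048233, the Icam1 window is chr9:21015690-21015939 and the Itgam window is chr7:128062390-128062639. Capitals mark matches on either strand to GGNNNTTCC, a loose form of the NF-kappaB site, in Sele and Icam1, and to GAGGAAG, a form of the PU.1 site, in Itgam.
Sele: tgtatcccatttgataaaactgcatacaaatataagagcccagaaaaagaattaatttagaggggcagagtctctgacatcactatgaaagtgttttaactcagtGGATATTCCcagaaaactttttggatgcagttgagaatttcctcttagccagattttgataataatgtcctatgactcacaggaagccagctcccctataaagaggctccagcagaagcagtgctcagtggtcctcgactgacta
Icam1: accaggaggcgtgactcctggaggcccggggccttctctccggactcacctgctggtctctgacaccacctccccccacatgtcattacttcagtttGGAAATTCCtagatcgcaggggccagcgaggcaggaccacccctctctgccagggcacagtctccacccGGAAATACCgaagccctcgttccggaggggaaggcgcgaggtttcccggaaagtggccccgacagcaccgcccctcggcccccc
Itgam: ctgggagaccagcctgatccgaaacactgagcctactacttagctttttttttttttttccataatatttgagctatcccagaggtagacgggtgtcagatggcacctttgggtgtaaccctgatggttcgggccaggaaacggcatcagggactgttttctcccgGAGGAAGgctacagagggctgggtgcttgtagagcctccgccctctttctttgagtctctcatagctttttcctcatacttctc

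RefSeq promoters were matched for 5 of the 9 genes. GGNNNTTCC was found once in the Sele window, 145 to 137 bases before the end of the window and so before that start, at 2 positions in the Icam1 window, 153 to 145 and 84 to 76 bases before the start, and once in the Selp window. It was not found in the Cd44 and Itgam windows. The letters occur in 15.7% of 32851 mouse promoter windows of the same length. GAGGAAG was found once each in the Itgam and Cd44 windows and is held by 10.6% of all windows, and none of its matches overlapped one of the other motif. These letters were chosen after the expression values were known, and a match is a description, not a binding site.

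The leukocyte side was the higher one in ligated veins. Itgam had a log2 value of 8.43 on the array labelled Cd39-null, ligated, against 4.78 in Cd39-null, sham, and of 6.97 in wild type, ligated, against 4.81 in wild type, sham. Both ligated arrays thus lay above both sham arrays, and the sham arrays were nearly level. The ligation difference was 3.65 log2 in the knockout (12.5-fold) and 2.17 in wild type (4.49-fold), and these were the 34th and the 79th highest of the 14115 genes.

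Itgb2, the beta chain that Itgam shares with the other leukocyte beta 2 integrins, was at 7.04 on the array labelled Cd39-null, ligated, and 4.65 in Cd39-null, sham, and at 5.42 in wild type, ligated, and 4.18 in wild type, sham. Its ligation differences were 2.38 log2 in the knockout and 1.24 in wild type. Mac-1 therefore had both of its chains at least 2-fold higher after ligation in each genotype, the alpha chain by more than the beta chain.

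Cd44, a receptor for hyaluronan that also carries E-selectin ligand activity on neutrophils, had log2 values of 7.73 on the array labelled Cd39-null, ligated, against 4.90 in Cd39-null, sham, and 6.09 in wild type, ligated, against 4.73 in wild type, sham. Its ligation differences were 2.83 in the knockout and 1.36 in wild type. Selplg was at 7.86 on the array labelled Cd39-null, ligated, and 5.26 in Cd39-null, sham, and at 6.27 in wild type, ligated, and 5.35 in wild type, sham. It was 6.08-fold higher after ligation in the knockout and 1.89-fold higher in wild type, where the difference of 0.92 log2 fell just short of 2-fold. Itgam, Itgb2, Cd44 and Selplg are grouped here as leukocyte genes by role, but bulk RNA does not show which cells, wall cells included, carried them. In all 4 the array labelled Cd39-null, ligated, was highest, wild type, ligated, came next and the sham arrays were lowest.

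**Figure D1:**
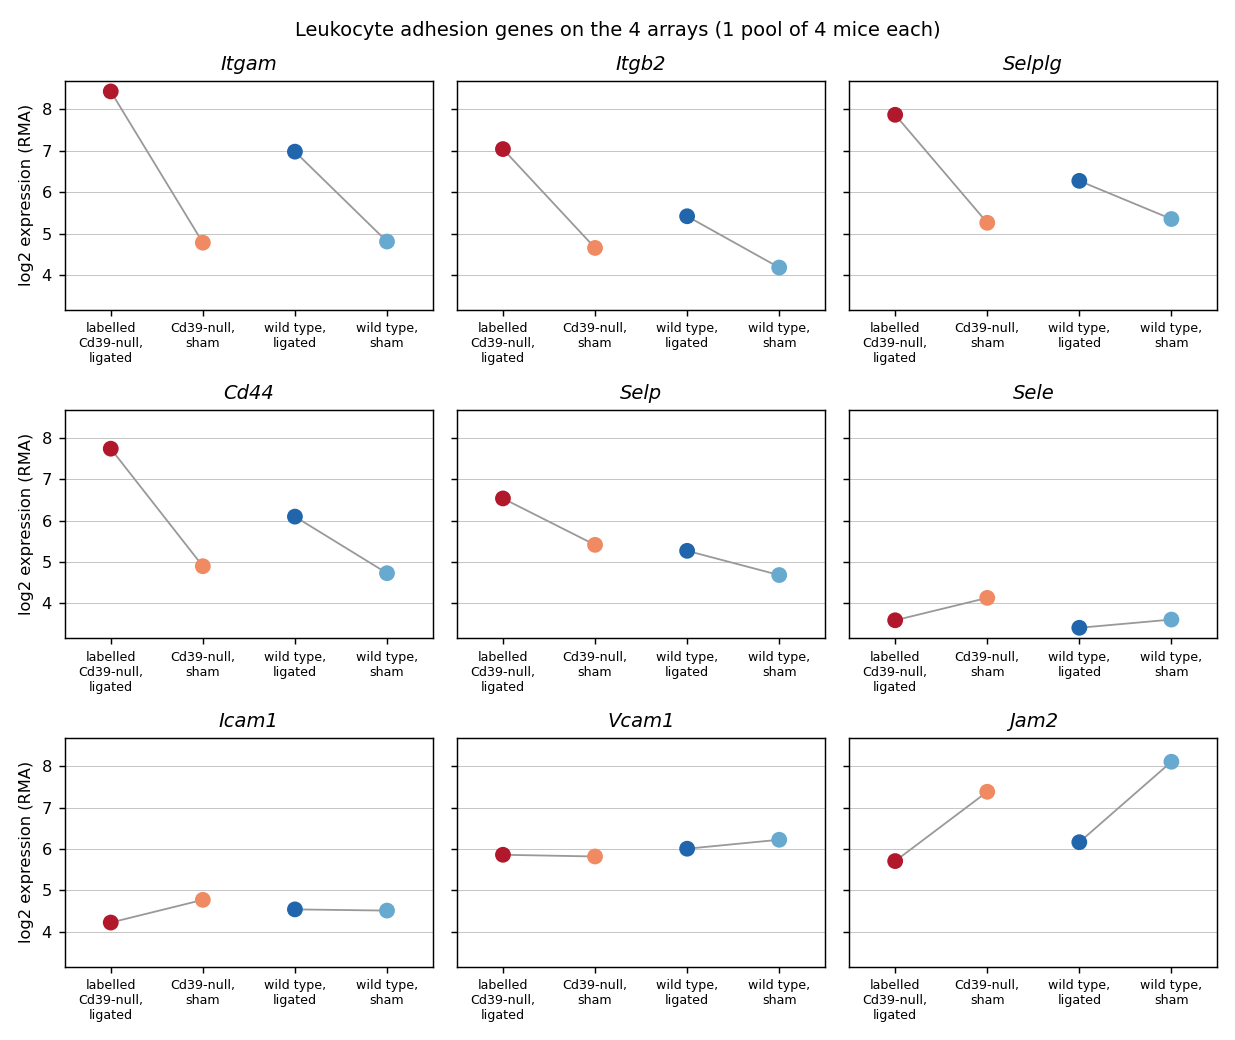
Log2 expression (RMA) of the 9 genes on the 4 arrays, with 1 point per array and a grey line joining the ligated and sham arrays of a genotype. Itgam, Itgb2, Selplg and Cd44 are highest on the ligated arrays, Jam2 is highest on the sham arrays, and Sele, Icam1 and Vcam1 are nearly level.

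The endothelial adhesion molecules differed little in level between ligated and sham veins. Their values were not set against endothelial markers, which had median ligation differences of 0.38 in the knockout and -1.24 in wild type. Sele had log2 values of 3.59 on the array labelled Cd39-null, ligated, against 4.13 in Cd39-null, sham, and 3.41 in wild type, ligated, against 3.61 in wild type, sham. Its ligation difference was -0.54 in the knockout and -0.20 in wild type, and its highest array was a sham array. The lowest value, 3.41, stood above a background level of 2.66 on that array.

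Icam1 was at 4.23 on the array labelled Cd39-null, ligated, and 4.77 in Cd39-null, sham, and at 4.54 in wild type, ligated, and 4.51 in wild type, sham. Its ligation differences were -0.55 and 0.03 log2. Vcam1 was at 5.86 on the array labelled Cd39-null, ligated, and 5.82 in Cd39-null, sham, and at 6.01 in wild type, ligated, and 6.22 in wild type, sham, with ligation differences of 0.04 and -0.22. As deposited, Sele, Icam1 and Vcam1 stayed within 1.5-fold of sham in all 6 of their ligation differences. After quantile normalisation, cyclic loess or median centring 4 of the 6 did, since the knockout differences were then -0.67, -0.60 and -0.67 for Sele and -0.77, -0.75 and -0.68 for Icam1. All of these were under 2-fold, and as deposited the whole range over the 4 arrays was 0.72 log2 for Sele, 0.55 for Icam1 and 0.40 for Vcam1.

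P-selectin stood between the leukocyte and the endothelial genes. Selp had log2 values of 6.53 on the array labelled Cd39-null, ligated, against 5.41 in Cd39-null, sham, and 5.27 in wild type, ligated, against 4.68 in wild type, sham. Here the ligated wild-type array lay below the knockout sham array, so the ligated and sham arrays overlapped. The ligation difference was 1.12 log2 in the knockout and 0.58 in wild type, and the knockout one was under 2-fold after quantile normalisation (0.83), cyclic loess (0.86) or median centring (0.99). The 7 measured platelet markers, which could carry Selp transcript, had medians of 4.22 in the knockout and -1.26 in wild type in the same comparisons. With values at or under the background set to it, the knockout median was 3.73. Their part in the Selp values was not tested.

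Jam2 was the 1 gene of the 9 that was lower after ligation in both genotypes by at least 2-fold. It had log2 values of 5.71 on the array labelled Cd39-null, ligated, against 7.38 in Cd39-null, sham, and of 6.16 in wild type, ligated, against 8.10 in wild type, sham. Both ligated arrays lay below both sham arrays. The differences were -1.67 and -1.94 log2, 3.19-fold and 3.84-fold lower, and they were the 258th and the 54th lowest of 14115 genes. Of 12 endothelial markers, 7 were at least 2-fold lower after ligation in wild type (median -1.24) and 1 in the knockout (median 0.38). The part of endothelial content in the Jam2 values was not tested. Of the 9 genes Jam2 had the lowest ligation difference in each genotype.

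**Figure D2:**
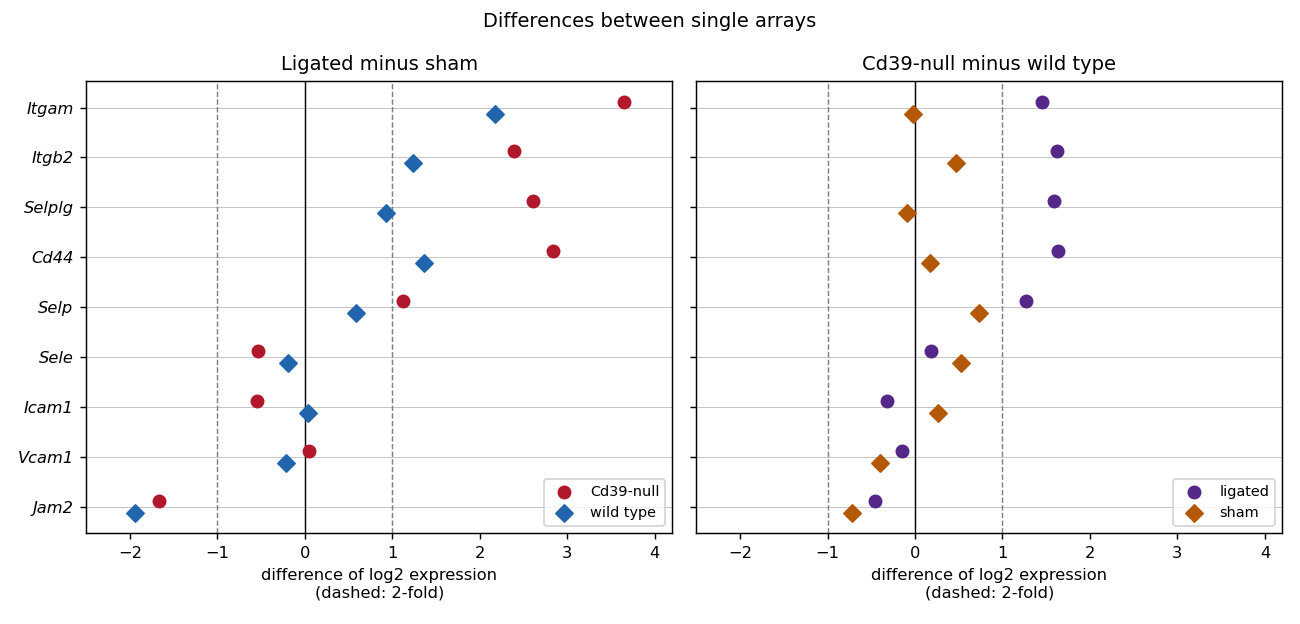
Differences of log2 expression between single arrays for the 9 genes. The left panel gives ligated minus sham, in the knockout (circles) and wild type (diamonds), and the right panel gives Cd39-null minus wild type, in ligated (circles) and sham veins (diamonds), with dashed lines at 2-fold. In ligated veins 5 genes lie beyond 2-fold, and in sham veins none of the 9 does.

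Counted together, 5 of the 9 genes were at least 2-fold higher and 1 was at least 2-fold lower after ligation in the knockout, where 10.9% and 5.8% of the 14115 genes were. In wild type 3 were higher and 1 was lower, against 6.6% and 3.63% of all genes. Itgam, Itgb2 and Cd44 (3 genes) passed 2-fold upward in both genotypes, as 3.63% of all genes did, and Jam2 passed it downward in both, as 1.45% did. The ligation differences had opposite signs in the genotypes for 2 of the 9, Icam1 and Vcam1, as for 31.5% of all genes, and for 0 of the 9 after quantile normalisation, cyclic loess or median centring. The median difference of the 9 was 1.12 in the knockout and 0.58 in wild type, where the medians of all genes were 0.03 and -0.01. The genes had been chosen with earlier results of these arrays known, so these counts are a description. With wild type, sham, in place of Cd39-null, sham, under the ligated knockout array, 5 of the 9 genes were at least 2-fold higher (9.52% of all genes) and 1 was lower (6.58%), with Itgam at 3.62, Cd44 at 3.00, Itgb2 at 2.86, Selplg at 2.51, Selp at 1.85 and Jam2 at -2.40.

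**Figure D3:**
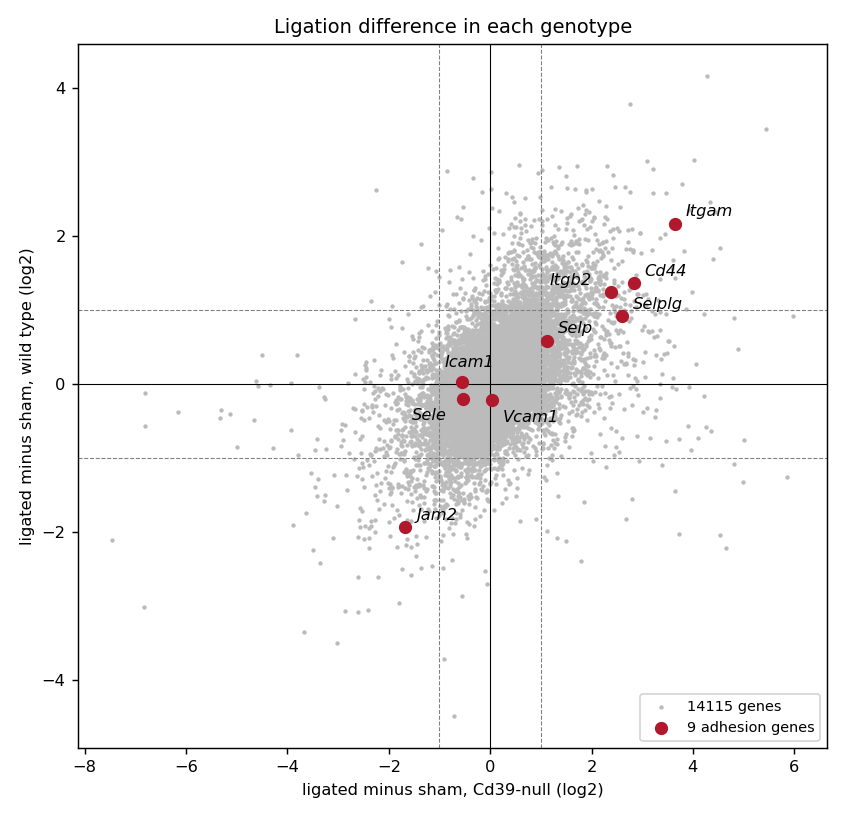
Ligated minus sham in the knockout (x axis) against wild type (y axis), in log2, for 14115 genes (grey) and the 9 adhesion genes (red), with dashed lines at 2-fold. Itgam, Cd44 and Itgb2 lie beyond 2-fold in both genotypes, Jam2 lies at the opposite corner, and Sele, Icam1 and Vcam1 lie near the centre.

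An additive model of genotype and ligation, was fitted with limma over all 4 arrays. With 1 residual degree of freedom, it treats unequal ligation responses of the genotypes as noise. Adjusted over all genes by Benjamini-Hochberg, limma called 0 of 14115 genes for ligation (0%) and 0 for genotype. The smallest adjusted p of 0.0952 was shared by Itgam (mean ligation difference 2.91 ± 0.41 SE) and Jam2 (-1.81 ± 0.23 SE), among other genes. Itgb2 (1.81 ± 0.35 SE) had a limma adjusted p of 0.111, Cd44 (2.10 ± 0.41 SE) of 0.112, Selplg (1.76 ± 0.45 SE) of 0.145 and Selp (0.85 ± 0.25 SE) of 0.176. Sele, Icam1 and Vcam1 had limma adjusted p values of 0.424, 0.602 and 0.857. Limma was also fitted for ligation alone without the array labelled Cd39-null, ligated. The estimates were then 2.18 for Itgam, 1.28 for Cd44, 1.00 for Itgb2, 0.97 for Selplg, 0.22 for Selp and -1.58 for Jam2. Those of Cd44, Itgb2, Selplg and Selp were smaller by over 1.5 times. But this fit sets wild type, ligated, against both sham arrays together, so its estimates mix in the genotype difference in sham veins. For Selp, wild type alone gave 0.58, and Cd39-null, sham, lay 0.73 above wild type, sham. At an unadjusted p under 0.05, limma's additive model listed 6 of the 9 genes for ligation, as it did 21% of all genes. For genotype it listed 2 of the 9 (Selp and Itgb2), as it did 6.94% of all genes.

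Between the genotypes without ligation, the 9 genes differed by less than 2-fold. Cd39-null, sham, minus wild type, sham, ran from -0.72 (Jam2) to 0.73 (Selp), with Sele at 0.52, Itgb2 at 0.47, Icam1 at 0.26, Cd44 at 0.17, Itgam at -0.03, Selplg at -0.09 and Vcam1 at -0.40. None of the 9 passed 2-fold, against 2.95% of all genes higher and 3.54% lower. The sham arrays differed in what they held. All 6 measured B cell markers were at least 2-fold higher in Cd39-null, sham, than in wild type, sham. With values at or under the background set to it, 5 of them were. In the same comparison 6 of 12 endothelial, 6 of 7 smooth muscle, 4 of 7 platelet and 1 of 7 fibroblast markers were at least 2-fold lower. At least 2-fold higher were 5 of 7 adipocyte, 5 of 11 neutrophil and 3 of 6 T cell markers. So were 2 of 5 general leukocyte and 1 of 10 macrophage markers. Every knockout ligation difference is taken against this Cd39-null, sham, array.

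In ligated veins 5 of the 9 genes were at least 2-fold higher on the array labelled Cd39-null than in wild type, as 3.61% of all genes were, and none was at least 2-fold lower, as 2.66% were. These were Cd44 (1.64), Itgb2 (1.62), Selplg (1.59), Itgam (1.45) and Selp (1.26), while Sele (0.18), Vcam1 (-0.15), Icam1 (-0.32) and Jam2 (-0.46) were less than 2-fold apart. The ligation differences were thus larger in the knockout than in wild type for Selplg by 1.68 log2, Itgam by 1.48, Cd44 by 1.47 and Itgb2 by 1.15, the 4 genes of the 9 for which they differed by at least 2-fold. Among all genes, 6.99% had a ligation difference at least 2-fold higher in the knockout by this measure and 5.5% one at least 2-fold lower. No test of these differences can be had, since they use all 4 arrays.

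General leukocyte markers were also higher after ligation, but unlike Itgam, Itgb2, Cd44 and Selplg their mean difference was not larger in the knockout. In bulk RNA more cells of a type and more RNA per cell cannot be told apart. The 5 general leukocyte markers had a median ligation difference of 1.23 in the knockout and 1.11 in wild type, and their summed linear level was 1971 on the array labelled Cd39-null, ligated, against 1085 in Cd39-null, sham, and 1335 in wild type, ligated, against 506 in wild type, sham. Taking off the mean ligation difference of these markers, which was 1.15 in the knockout and 1.41 in wild type, left Itgam at 2.50 and 0.76, Cd44 at 1.68 and -0.04, Selplg at 1.45 and -0.49, and Itgb2 at 1.23 and -0.17. In wild type Cd44 and Itgb2 were thus as much higher as the general leukocyte markers to within 0.2 log2. In the knockout all 4 genes exceeded the marker mean, but the markers did not move alike. Cd52 was at 0.23 there, Cd53 at 1.23 and Laptm5 at 2.43, the last level with Itgb2 at 2.38. The median knockout differences of B and T cell markers were -2.37 and -1.20, so the mix of leukocytes also differed. Whether the 4 genes exceeded leukocyte content was not tested.

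Markers of macrophages, neutrophils and platelets differed between the ligated arrays. The label Cd39-null minus wild type there had medians of -0.34, 2.41 and 4.29 in turn. The 10 measured macrophage markers were all at least 2-fold higher after ligation in wild type and 7 of them in the knockout, with medians of 1.61 in the knockout and 2.17 in wild type and summed linear levels of 2146 on the array labelled Cd39-null, ligated, against 658 in Cd39-null, sham, and 2347 in wild type, ligated, against 530 in wild type, sham. The 11 neutrophil markers had medians of 0.95 in the knockout and -0.02 in wild type, with 5 and 2 of them at least 2-fold higher, and summed levels of 4284 on the array labelled Cd39-null, ligated, against 2621 in Cd39-null, sham, and 1081 in wild type, ligated, against 1239 in wild type, sham. The highest means of this list were those of the calprotectin genes S100a8 and S100a9, followed by Retnlg. Their ligation differences were -0.17, 0.57 and 0.95 in the knockout and -0.66, -0.02 and 0.06 in wild type. The 5 neutrophil markers at least 2-fold higher in the knockout, and the 1 at least 2-fold lower, were other genes. Platelet markers had summed levels of 2479 on the array labelled Cd39-null, ligated, against 231 in Cd39-null, sham, and 556 in wild type, ligated, against 831 in wild type, sham. The remaining marker lists had median ligation differences of -1.20 in the knockout and -0.59 in wild type for T cells, -2.37 and -0.35 for B cells, -0.50 and -0.34 for smooth muscle, -0.81 and -0.19 for fibroblasts, and -1.91 and -0.12 for adipocytes. How far any of these cell types carried the 9 genes was not tested.

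**Figure D4:**
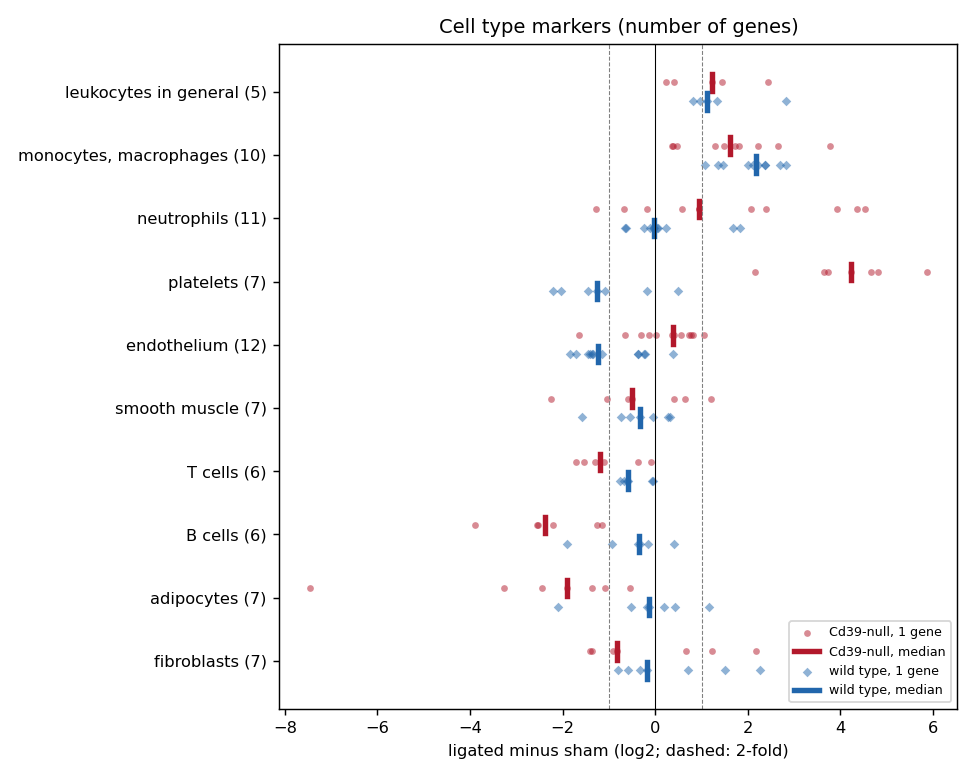
Ligated minus sham (log2) for single marker genes of 10 cell types, in the knockout (red circles) and wild type (blue diamonds), with thick bars at the medians and dashed lines at 2-fold. Macrophage and general leukocyte markers are higher in both genotypes, and 6 of 7 platelet markers lie on opposite sides, with list medians of 4.22 in the knockout and -1.26 in wild type.

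Among the 9 genes, those of the leukocyte side varied alike over the arrays. With each gene centred on its mean over the 4 arrays, the closest pairs by root mean square distance were Itgb2 and Cd44 (0.18 log2), Selplg and Cd44 (0.19), Selplg and Itgb2 (0.20), and Sele and Icam1 (0.21). The farthest pair was Itgam and Jam2 (2.46). Mac-1's own chains were 0.58 apart, with Itgam varying over 3.65 log2 and Itgb2 over 2.86. With 4 arrays, a close match is common for genes that vary little, and 556 genes lay within 0.1 log2 of Vcam1, 355 of Icam1 and 177 of Sele, against 4 of Selp, 3 of Cd44, 2 each of Selplg and Jam2, and 0 of Itgam and Itgb2.

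The genes whose values over the 4 arrays lay nearest to Jam2 were the endothelial phosphatase Ptprb (0.05 log2), the kinase Mapk10 (0.08) and the death ligand Tnfsf10 (0.10). Cd44 was nearest to Nfam1 (0.06), the glutathione reductase Gsr (0.06) and the semaphorin Sema4a (0.06), and Selplg to the receptor Pilrb1 (0.08), the sialic acid binding Siglece (0.09) and the glucose transporter Slc2a1 (0.10). Selp was nearest to H60b (0.05), Arhgap4 (0.06) and the leukocyte kinase Pik3cg (0.08). Itgb2 was nearest to the formin Fmnl1 (0.11), the hyaluronan-binding Tnfaip6 (0.12) and Adgrg3 (0.12), and Itgam to the C-type lectin Clec4n (0.21), the actin-binding Cotl1 (0.21) and the sialic acid receptor Cd33 (0.22). Sele was nearest to Hexim2, B3galt4 and Zfp931, Icam1 to Ang2, Shc4 and Thnsl2, and Vcam1 to Phf11d, Wnt9a and St6galnac5, all within 0.03 log2.

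Counter-receptors of the 9 genes, named here for their roles after their values were seen, did not follow one course. Itgal, the alpha chain of LFA-1 and an ICAM-1 receptor, had log2 values of 6.06 on the array labelled Cd39-null, ligated, against 3.72 in Cd39-null, sham, and 3.26 in wild type, ligated, against 3.44 in wild type, sham. It was thus high on 1 of the 4 arrays. Itgax, the alpha chain of the integrin CD11c/CD18, had ligation differences of 1.99 in the knockout and 0.66 in wild type, and was at or under the background on both sham arrays. Itga4, whose integrins bind VCAM-1 and JAM-B, had ligation differences of -0.70 and 0.52. Jam3, the junction partner of Jam2, had a difference of -0.47 in wild type, near the background. In the knockout it was under the background on both arrays, so its difference of -0.54 there is not read.

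Counts of this and the following lists stand beside the shares of all 14115 genes after ligation. In the knockout 10.9% were at least 2-fold higher and 5.8% lower, and in wild type 6.6% and 3.63%. Of 24 other integrin chains, 22 passed the filter on dim genes. Of these, 10 were at least 2-fold higher and 1 lower after ligation in the knockout, and 2 higher and none lower in wild type. Their median differences were 0.77 in the knockout and -0.02 in wild type. The platelet integrin chain Itgb3 had ligation differences of 3.91 in the knockout and -0.57 in wild type. Its partner Itga2b was under the background in Cd39-null, sham, so that it was higher by at least 3.68 log2 in the knockout, and it lay near the background on both wild-type arrays. The fibronectin receptor chain Itga5 was higher in both (2.29 and 1.43), and Itga8, a chain of mesenchymal cells and smooth muscle, was under the background on the array labelled Cd39-null, ligated, which puts its knockout difference at -2.88 or lower, against -0.04 in wild type. In sham veins the collagen receptor chain Itga2 was at -1.26 and Itga9 at -1.12 in Cd39-null against wild type.

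Of 17 measured genes that regulate leukocyte integrins or relay their signals, 14 were at least 2-fold higher after ligation in the knockout and 5 in wild type. None was at least 2-fold lower, 3 had opposite signs in the genotypes, and the medians were 1.34 and 0.56. Examples were Fermt3, which encodes kindlin-3, the activator of beta integrin tails in blood cells (2.51 and 1.62), the Src family kinase Fgr (2.83 and 1.12), the exchange factor Vav1 (1.86, and at least 1.46 over a wild-type sham value under the background) and the adaptor Lcp2 (1.92 and 1.72). In sham veins Cytip was 1.76 and Vav1 at least 0.59 higher in the knockout. Limma called 0 of the 17 after adjustment over all genes.

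The partners of CD44 included genes that make or bind hyaluronan. Of 14 that passed the filter, 6 were at least 2-fold higher in each genotype, 4 of them in both, and 1 was at least 2-fold lower in the knockout, with medians of 0.86 in the knockout and 0.57 in wild type. The hyaluronan-binding proteoglycan Vcan had ligation differences of 2.98 in the knockout and 1.76 in wild type, Tnfaip6 of 2.44 and, over a sham value under the background, at least 1.09, and the hyaluronan receptor Hmmr of 1.27 and 2.00. The hyaluronan synthase Has2, under the background in Cd39-null, sham, was higher by at least 2.05 in the knockout and had a difference of 0.37 in wild type. In sham veins the scavenger receptor Stab1 was at -1.67 and the membrane to cytoskeleton linker Ezr at 1.33 in the knockout against wild type.

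Proteases known to cut adhesion molecules from cell surfaces were at least 2-fold higher in 7 of 8 cases in the knockout and 3 of 8 in wild type, with medians of 1.72 and 0.74. They included Mmp9, a gelatinase stored in neutrophil granules (at least 4.09 over a knockout sham value under the background, and 0.95), Adam8, a leukocyte sheddase (3.64 and 1.43), Mmp14, which is known to shed CD44 (2.22 and 1.92), and Adam9 (1.79 and 1.09). In sham veins Mmp14 was at -1.13 in the knockout against wild type.

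Among 18 inducers and regulators of the endothelial ligands that passed the filter, of 19 measured, 9 were at least 2-fold higher after ligation in the knockout and 1 in wild type, where 1 was lower, with medians of 0.90 and 0.10. Il1b was at 8.12 on the array labelled Cd39-null, ligated, against 4.78 in Cd39-null, sham, and at 6.02 in wild type, ligated, against 4.60 in wild type, sham. Tnf was higher by at least 1.36 in the knockout and 0.58 in wild type, over sham values under the background, and the interleukin-1 receptor Il1r1 had differences of 1.13 and 0.78. Klf4, a flow-responsive factor of endothelium, had -0.74 and -1.27. In sham veins the NF-kappaB subunit Rela was at -0.97 and the TNF receptor Tnfrsf1a at -0.61 in the knockout. Sele, Icam1 and Vcam1, which carry the matches shown above or are known targets of these cytokines, had ligation differences between -0.55 and 0.04 on the same arrays.

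Selectin ligand genes other than Selplg were mixed. Of 18 that passed the filter, 4 were at least 2-fold higher and 1 lower after ligation in the knockout, and 1 was higher and 3 were lower in wild type, with medians of -0.01 and -0.14. Gcnt1, which builds the core structure that carries selectin ligands on PSGL-1, had a log2 value of 7.60 on the array labelled Cd39-null, ligated, against 5.01 in Cd39-null, sham, and of 5.35 in wild type, ligated, against 5.04 in wild type, sham. The galactosyltransferases B4galt5 (2.01 and 1.58) and B4galt6 (1.13 and 0.71) were above sham in both genotypes, where Gcnt1 had differences of 2.59 and 0.32. Glycam1, a mucin of lymph node venules, was at 6.61 in Cd39-null, sham, and between 3.35 and 3.71 on the other arrays, so it was high on 1 of the 4 arrays, the one with the highest summed B cell markers. The sialomucin Cd34 had differences of -0.48 and -1.26.

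Other junction and immunoglobulin-type adhesion genes showed no shift like that of Jam2. Of 18 that passed the filter, 2 were at least 2-fold higher and none lower after ligation in the knockout, and 1 was higher and 1 lower in wild type, with medians of 0.08 and -0.16. Sirpa, a myeloid receptor for CD47, was higher in both (1.14 and 1.19), and its ligand Cd47 was at -0.59 and -0.72. F11r, which encodes JAM-A, had 1.54 and 0.23. Icam4 had -0.93 and -0.96 and lay near or under the background on all 4 arrays. In sham veins Cdh5, the cadherin of endothelial junctions, was at -1.09 and the venular protein Plvap at -1.01 in the knockout against wild type.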

How the data were processed

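Total RNA was extracted with Trizol, amplified from 50 ng and hybridised as 3 µg of biotinylated cDNA, per the labels' protocols. The deposited values are log2 expression per probe set, and the submitters' processing notes name RMA and the package oligo without versions. They were used with no further scaling. No read depth applies, and the number of arrays limits the precision. RMA would hide a global shift in RNA content.

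Of 35556 probe sets, 21218 carried 1 gene symbol, and for each gene the brightest probe set by mean over the 4 arrays was taken. Genes with a mean at or above the 25th percentile (2.29) were kept. Differences between arrays are described at 2-fold. limma 3.58.1 in R 4.3.3 fitted genotype and ligation over the 4 arrays, and the fit was tested on simulated data. Figures and promoter searches used Python 3.11.15.

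The 9 genes, 7 lists of related genes, 10 marker lists and the naming rule were chosen with earlier results of these data known. Named were the 9 genes and, per related list, up to 4 with the largest mean ligation difference and 2 with the largest genotype difference in sham veins, besides the 3 nearest patterns per gene, from which predicted and RIKEN genes, small RNAs, receptor segments and olfactory genes were left out. Also named are marker genes and, by role, counter-receptors. Some listed genes were not analysed here. Alternatives covered normalisation, probe set choice, filter, fold and model.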

Additional observations from a re-analysis of the deposited data

Results flagged for a closer look

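The ligation difference of Icam1 was negative in the knockout (-0.55) and positive in wild type (0.03), so that they differed by -0.58 log2. For Vcam1 the signs were the other way (0.04 in the knockout and -0.22 in wild type), a difference of 0.26. Across all genes, 31.5% had opposite signs in this way. After quantile normalisation, cyclic loess or median centring both differences were negative for both genes. The genotype difference changed sign between ligated and sham veins for Selplg (1.59 in ligated and -0.09 in sham veins, 1.68 apart), Itgam (1.45 and -0.03, 1.48 apart) and Icam1 (-0.32 and 0.26, -0.58 apart). These contrasts use 1 array per group, so the differences were not tested, and several of the values that set a sign lie close to 0.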

How the results depend on the processing

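All 9 genes have 1 probe set, so averaging probe sets moved none of them. Quantile normalisation, cyclic loess and median centring moved no ligation or genotype difference of a gene by more than 0.30 log2 and left 35 of 36 on the same side of 2-fold in each case; the exception each time was Selp in the knockout, which left 5 of the 9 genes at least 2-fold apart there in place of 6. At 1.5-fold in place of 2-fold, 2 genes in place of 0 differed between the genotypes in sham veins, and the other counts stayed within 1.5 times. The median ligation difference of Itgam, Itgb2, Cd44 and Selplg, less the mean of the leukocyte markers, an alternative added after seeing the data, was 1.57 in the knockout and -0.11 in wild type. Over all 4 arrays, limma called 0 genes for ligation and for genotype under every filter, normalisation and model tried. Fitted for ligation alone without the array labelled Cd39-null, ligated, its estimates mix in the genotype difference in sham veins, as said above. Fitted for genotype alone without that array, Cd39-null, sham, is set against ligated and sham wild type together, so these estimates mix in the ligation difference and are not read here. With values at or under an array's background set to it, also added after seeing the data, no list median moved by 1.5-fold or crossed 2-fold. Median centring moved the median ligation difference of all genes to -0.10 in place of 0.03 in the knockout. No paired analysis was possible because each group is 1 array with no replicates to pair; the additive model itself compares ligated with sham within each genotype.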
